A study of Mus musculus with 6 samples.

Results

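Rora and 9 core genes of the circadian clock, Arntl, Clock, Per1, Per2, Per3, Cry1, Cry2, Nr1d1 and Nr1d2, were examined in MA-10 cells and in STARKO1 cells. They were picked by gene symbol, and all 10 were among the 14774 genes of the count table. The choice was made with earlier results of this same comparison in view, so the differences of these 10 genes are given as a description. No p-value is printed for any of them, and counts past a threshold are given only beside the share of all genes. MA-10 is a mouse tumor Leydig cell line, and Leydig cells are the steroid-producing cells of the testis. STARKO1 is an MA-10 clone grown from a single sorted cell after CRISPR/Cas9 was directed at Star with a pair of guide RNAs in exon 2, and it carries a frameshift deletion there. Each cell line had 3 libraries of total RNA from untreated cells in routine culture. STARKO1 is 1 clone, so an effect of the knockout and a trait of that clone cannot be told apart. Neither the time of harvest nor any synchronisation of the cells is given in the sources used here, so levels were measured and rhythm or phase was not.

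The clock is a transcriptional feedback loop that runs inside single cells. BMAL1, the product of Arntl, pairs with CLOCK on E-box sequences and switches on the Per, Cry and Nr1d genes, and the PER and CRY proteins return to the nucleus and shut this pair off. In a side loop, nuclear receptors such as RORA activate Arntl through ROR elements, while REV-ERBα and REV-ERBβ, the products of Nr1d1 and Nr1d2, repress it through the same elements. In Leydig cells the clock is known for its link to steroid synthesis, and mice that lack BMAL1 make little testosterone.

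The 2 genes of the ROR element loop with the largest differences, Rora and Nr1d1, are shown with the 100 bases before their RefSeq start sites (mouse GRCm38), read 5′ to 3′ on the strand of the gene. Both stretches lie outside the annotated exons of their own gene, and exons of other genes were not checked. For other genes, capitals mark a match to a clock motif within a window from 250 bases before to 50 bases after a RefSeq start, searched on both strands.
Rora, chr9:68653686-68653785, plus strand: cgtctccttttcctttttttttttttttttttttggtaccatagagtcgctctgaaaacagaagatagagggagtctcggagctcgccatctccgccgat
Nr1d1, chr11:98775378-98775477, minus strand: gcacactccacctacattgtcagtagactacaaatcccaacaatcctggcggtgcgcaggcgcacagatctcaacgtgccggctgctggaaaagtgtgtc
Arntl, chr7:113207531-113207556, plus strand, in an exon, ROR element core: aggcagaaagTAGGTCAgggacggag
Per1, chr11:69098756-69098815, plus strand, E-box: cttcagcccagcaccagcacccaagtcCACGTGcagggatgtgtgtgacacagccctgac
Cry1, chr10:85185082-85185141, minus strand, E-box: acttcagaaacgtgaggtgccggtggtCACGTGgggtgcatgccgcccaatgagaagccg
Per3, chr4:151044837-151044896, minus strand, D-box: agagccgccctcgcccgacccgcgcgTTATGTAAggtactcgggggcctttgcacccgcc
Per3, chr4:151044790-151044849, minus strand, D-box: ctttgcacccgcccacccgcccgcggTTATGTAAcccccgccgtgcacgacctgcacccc
Bhlhe41, chr6:145865558-145865583, minus strand, E-box: gtacgttccgCACGTGagctgggtgc
Ciart, chr3:95882254-95882313, minus strand, E-boxes: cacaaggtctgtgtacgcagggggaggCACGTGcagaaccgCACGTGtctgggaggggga
Nfil3, chr13:52981036-52981061, minus strand, in an exon, ROR element core on the opposite strand: cgctcggaacTGACCTActaacacac

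The letters searched were CACGTG for the E-box, TAGGTCA and TGGGTCA for the core of the ROR element, TTANGTAA for the D-box and TGACGTCA for the cAMP response element. Over 32851 RefSeq promoters of the same length, 7.15% held the E-box, 2.61% and 3.98% held the ROR cores, 2.32% held the D-box and 1.79% held the cAMP response element. Counted by gene, with a match in any promoter of 27025 genes, the shares were 8.09%, 2.97%, 4.57%, 2.72% and 2.03% in the same order. The clock genes below are also counted by gene. Of the 9 clock genes with a promoter in the RefSeq table, Per1 and Cry1 held an E-box. In Per1 it was in the window of 1 of 2 RefSeq starts, at base 69098949 inside the gene, and began 166 bases before that start. In Cry1 it began 60 bases before the start. Arntl, the classic gene of the ROR element, held TAGGTCA, which began at base 31 after the second of its starts. Per3 held D-boxes that began 205 and 158 bases before its start, and the matches printed here did not share bases. The windows of Rora, Clock, Cry2, Nr1d1 and Nr1d2 held none of these letters, which says only that the letters are not in these windows. Outside the core genes, the printed stretches are a selection of the matches. Tef and Cipc held an E-box as well as Bhlhe41 and Ciart, while the windows of Dbp and Csnk1e held none of these letters.

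Of the 10 genes, Rora and Nr1d1 had the largest differences, and both were lower in STARKO1 cells. Rora was 12.3-fold lower and Nr1d1 3.00-fold lower, while their partners in the loop, Arntl and Clock, differed by 1.12-fold and 1.11-fold. Of the period and cryptochrome genes, Per3 and Cry2 were lower in every STARKO1 library in the scaled CPM used here, by 2.23-fold and 1.47-fold. Relative to library totals alone, MA-10 replicate 2 was below all STARKO1 libraries for both genes. Per1, Per2 and Cry1 overlapped between the cell lines. Levels are in CPM, the count relative to a library size that was scaled by the TMM method of edgeR, and folds are ratios of the mean CPM.

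The libraries held between 14114351 and 19530062 counts each. The MA-10 libraries stood further apart than the STARKO1 libraries, with correlations of log2 CPM across genes (which are not independent replicates) of 0.802 to 0.974 among the MA-10 libraries and 0.995 to 0.996 among the STARKO1 libraries. MA-10 replicate 1 had correlations of 0.949 to 0.955 with the STARKO1 libraries, above the 0.802 and 0.874 it had with the other MA-10 libraries. The 7SL RNA, a part of the signal recognition particle, took 1.81%, 14.4% and 6.63% in the MA-10 libraries (replicates 1 to 3) and 1.82% to 2.37% of the counts in the STARKO1 libraries. Star, the targeted gene, had 60.9, 109 and 61.4 CPM in the MA-10 libraries and 2.06, 2.71 and 2.02 CPM in the STARKO1 libraries. All 9 Leydig cell markers were in the table, with a sum of 1825 to 2606 CPM in the MA-10 libraries and of 1483 to 1562 CPM in the STARKO1 libraries. By edgeR's quasi-likelihood test 2 of them, Star and Hsd3b1, had an adjusted p under 0.05, both lower, where 9.04% of all tested genes had. The STARKO1 libraries were lower without overlap for 5 of the 9 and higher for 2, Cyp17a1 and Nr5a1. Of all tested genes, 21.0% were lower and 21.5% higher in this way. Of other testis cell markers, 2 of 5 for Sertoli cells (333 to 524 CPM, against 565 to 589 CPM in STARKO1 cells), 1 of 4 for germ cells (2.20 to 3.55, against 1.91 to 2.83 CPM), 2 of 4 for macrophages (4.86 to 9.85, against 6.37 to 8.56 CPM) and 2 of 4 for endothelial cells were listed. The endothelial sum was 26.4 to 41.5 CPM in MA-10 cells and 118 to 124 CPM in STARKO1 cells, of which most was Cdh5, and its part in the clock results was not tested. In bulk RNA, fewer cells that express a gene and less RNA per cell cannot be told apart. The labels do not say that the libraries came from separate cultures, and a general statement in the study's methods on independent experiments does not name the sequencing. Without separate cultures, p-values measure the spread between these libraries, which may be technical.

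**Figure D1:**
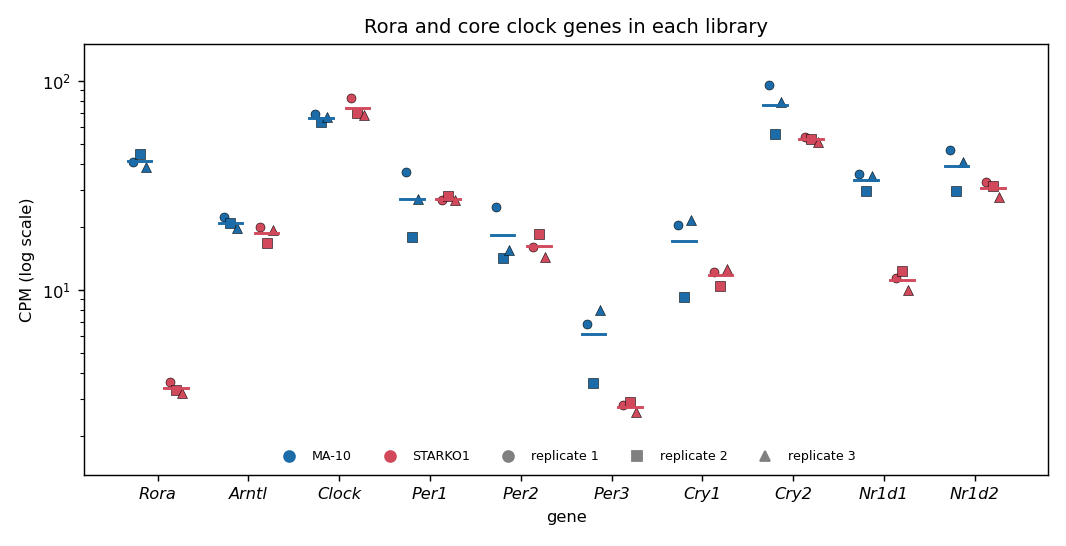
CPM (log scale) of Rora and the 9 core clock genes in each library, with MA-10 in blue, STARKO1 in red, a marker shape for each replicate and a line at the mean of each cell line. Rora lies between 38.7 and 44.8 CPM in MA-10 cells and between 3.20 and 3.61 CPM in STARKO1 cells, and the markers of Arntl, Clock, Per1, Per2, Cry1 and Nr1d2 overlap between the cell lines.

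RORA is an orphan nuclear receptor that binds ROR elements as a monomer and activates transcription. The gene lies on chromosome 9 of GRCm38 (68653786 to 69388246, plus strand), spans 734461 bp and has 13071 bp of exons over 6 annotated transcripts, which the gene counts do not separate. Rora had 711, 516 and 440 counts in MA-10 replicates 1, 2 and 3 and 84, 56 and 57 counts in STARKO1 replicates 1, 2 and 3. In CPM, Rora was at 40.7, 44.8 and 38.7 in the MA-10 libraries and at 3.61, 3.30 and 3.20 in the STARKO1 libraries. All MA-10 libraries were far above all STARKO1 libraries, and MA-10 replicate 1, which was nearer to the STARKO1 libraries across all genes, stood with the other MA-10 libraries. Means were 41.4 ± 3.06 and 3.37 ± 0.215 CPM (SD, n = 3 each). On the log2 scale Rora differed by -3.61 (standard error 0.17), and this stayed between -3.69 and -3.17 under 14 other settings. With MA-10 replicate 1 alone against STARKO1, a setting chosen after the data were seen, it was -3.58. Rora was not lost from STARKO1 cells, since its counts were well above 3 counts, the smallest number taken as shown (at most 0.177 CPM in STARKO1 cells).

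REV-ERBα, the product of Nr1d1, binds heme and represses genes with ROR elements together with the NCOR1 and HDAC3 corepressors. Nr1d1 lies on chromosome 11 (98767932 to 98775333, minus strand). It was at 35.8, 29.7 and 35.0 CPM in the MA-10 libraries and at 11.3, 12.3 and 9.94 CPM in the STARKO1 libraries. The lowest MA-10 library was above the highest STARKO1 library, and the means were 33.5 ± 3.33 and 11.2 ± 1.16 CPM (SD, n = 3 each). On the log2 scale Nr1d1 differed by -1.58 (standard error 0.17), with a range of -1.66 to -1.17 over the 14 settings and -1.68 with MA-10 replicate 1 alone. The 3′ end of Nr1d1 shares 263 bp of exon with Thra on the other strand. Whether reads were assigned by strand is not given in the sources used here, so reads from these bases cannot be told apart. Thra had 62.2 ± 12.6 and 59.9 ± 3.35 CPM (SD, n = 3 each), and its log2 fold change of -0.05 (standard error 0.19) was not past the threshold (adjusted p = 0.849, edgeR's quasi-likelihood test).

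Nr1d2 encodes REV-ERBβ, a repressor at the same elements. It lies on chromosome 14 (18204054 to 18239127, minus strand) and was at 46.4, 29.7 and 40.9 CPM in the MA-10 libraries and at 32.6, 31.3 and 27.8 CPM in the STARKO1 libraries. MA-10 replicate 2 lay among the STARKO1 libraries, so the groups overlapped. Its log2 fold change was -0.35 (standard error 0.20) and turned to 0.03 when libraries were scaled by their size alone, which raised the median of all genes by 0.43. Within a library, the ratio of Nr1d1 to Nr1d2 per kilobase (kb) of exon was 1.35, 1.75 and 1.50 in the MA-10 libraries and 0.609, 0.689 and 0.630 in the STARKO1 libraries. Nr1d1 was therefore the more abundant REV-ERB transcript per kb in all MA-10 libraries, and Nr1d2 in all STARKO1 libraries.

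In CPM, the activators of the loop were close in the cell lines. Arntl (chromosome 7, 113207465 to 113314126, plus strand) was at 22.3, 20.8 and 19.7 CPM in the MA-10 libraries and at 20.0, 16.8 and 19.4 CPM in the STARKO1 libraries. The highest STARKO1 library was above the lowest MA-10 library. Arntl differed by -0.16 on the log2 scale (standard error 0.15), and it was 0.26 with scaling by library size alone. Clock (chromosome 5, 76209868 to 76304792, minus strand) was at 69.2, 63.4 and 67.4 CPM in the MA-10 libraries and at 82.5, 70.1 and 68.6 CPM in the STARKO1 libraries. The groups of Clock overlapped at 68.6 and 69.2 CPM, and the log2 fold change was 0.15 (standard error 0.15). Within a library, the ratio of Clock to Arntl per kb of exon did not overlap between the cell lines. This ratio was 1.70, 1.67 and 1.87 in the MA-10 libraries and 2.26, 2.29 and 1.94 in the STARKO1 libraries. The paralog of Arntl, Arntl2, was at 1.93 ± 0.454 and 1.89 ± 0.154 CPM (SD, n = 3 each), and Npas2, the paralog of Clock, was not analysed here.

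Rora and Nr1d1 were then set against Arntl and Clock inside each library. The ratio of Rora to Arntl per kb of exon was 1.05, 1.24 and 1.13 in the MA-10 libraries and 0.104, 0.113 and 0.0951 in the STARKO1 libraries. The ratio of Clock to Nr1d1 per kb was 0.434, 0.479 and 0.432 in the MA-10 libraries and 1.63, 1.28 and 1.55 in the STARKO1 libraries. Neither ratio overlapped between the cell lines, and neither depends on how libraries are scaled. The pairs set the genes with the largest differences against genes with small ones, so these ratios restate those differences and add no separate support. By contrast, Cry2 to Cry1 (2.53 ± 0.625 and 2.38 ± 0.257) and Per1 to Per2 (1.55 ± 0.254 and 1.76 ± 0.192, SD, n = 3 each) overlapped.

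**Figure D2:**
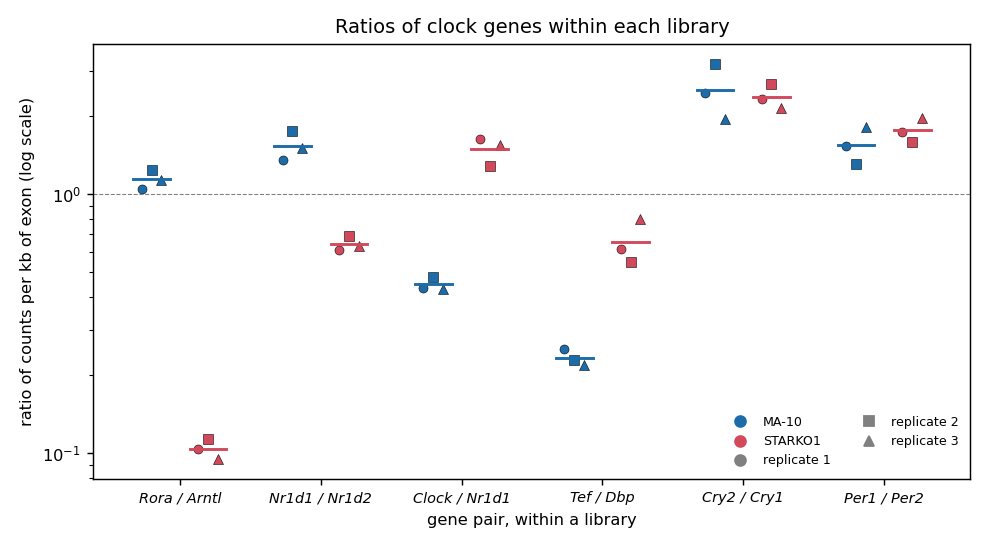
Ratio of counts per kb of exon (log scale) for 6 pairs of clock genes within each library, with MA-10 in blue, STARKO1 in red, a marker shape for each replicate and a line at the mean. The first 4 pairs do not overlap between the cell lines, with Rora to Arntl at 1.14 ± 0.0944 and 0.104 ± 0.0090 (SD, n = 3 each), and Cry2 to Cry1 and Per1 to Per2 overlap.

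The period genes encode the PER proteins, which carry the CRY proteins into the nucleus and are marked for breakdown by casein kinase 1. Per1 (chromosome 11, 69095217 to 69109960, plus strand), which cAMP and serum induce quickly in many cells, was at 36.7, 17.9 and 27.0 CPM in the MA-10 libraries and at 26.8, 28.0 and 27.0 CPM in the STARKO1 libraries. MA-10 replicate 1 was the highest library and MA-10 replicate 2 the lowest, with the STARKO1 libraries close together between them. For Per1 the log2 fold change was 0.00 (standard error 0.26), and its sign depended on the library left out, with 0.36 without MA-10 replicate 1 and -0.23 without MA-10 replicate 2. Per2 (chromosome 1, 91415982 to 91459324, minus strand) was at 24.9, 14.2 and 15.5 CPM in the MA-10 libraries and at 16.0, 18.4 and 14.3 CPM in the STARKO1 libraries. MA-10 replicate 1 was above the other libraries, which overlapped, and the log2 fold change of -0.17 (standard error 0.25) turned to 0.21 without that library and to 0.18 with scaling by library size alone.

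Per3, the period gene that mice can lose with the mildest effect on rhythm, had a lower level in STARKO1 cells. It lies on chromosome 4 (151003652 to 151044665, minus strand) and was at 6.87, 3.56 and 8.01 CPM in the MA-10 libraries and at 2.80, 2.89 and 2.58 CPM in the STARKO1 libraries. The groups did not overlap in CPM, although MA-10 replicate 2 was near the STARKO1 libraries. That separation rests on the TMM factors, which were 0.654 for MA-10 replicate 2 and 1.17 to 1.19 for the STARKO1 libraries. Relative to library totals alone, MA-10 replicate 2 (41 counts) was below the STARKO1 libraries (65, 49 and 46 counts). Per3 differed by a log2 fold change of -1.16 (standard error 0.32), with a range of -1.43 to -0.77 over the 14 settings. The ratio of Per1 to Per3 per kb was 7.81 ± 1.80 in the MA-10 and 16.9 ± 0.789 in the STARKO1 libraries (SD, n = 3 each).

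The cryptochromes CRY1 and CRY2 are the main repressors of BMAL1 and CLOCK. Cry1 (chromosome 10, 85131700 to 85185064, minus strand) was at 20.5, 9.19 and 21.6 CPM in the MA-10 libraries and at 12.2, 10.4 and 12.5 CPM in the STARKO1 libraries. MA-10 replicate 2 was the lowest library of all, and MA-10 replicates 1 and 3 were above the STARKO1 libraries. For Cry1 the log2 fold change was -0.54 (standard error 0.32), with -0.31 without MA-10 replicate 1, -0.35 without MA-10 replicate 3, -0.84 without MA-10 replicate 2 and -0.18 with library size alone. Cry2 (chromosome 2, 92403646 to 92434043, minus strand) was at 95.5, 55.4 and 79.3 CPM in the MA-10 libraries and at 53.7, 52.4 and 51.0 CPM in the STARKO1 libraries. The groups of Cry2 did not overlap in CPM, but MA-10 replicate 2 came close to STARKO1 replicate 1. Relative to library totals alone, MA-10 replicate 2 (639 counts) was below the STARKO1 libraries (1248, 889 and 907 counts). The log2 fold change was -0.55 (standard error 0.22). It was -0.28 without MA-10 replicate 1 and -0.18 with library size alone.

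The spread in MA-10 cells set the clock genes apart from each other. Over the MA-10 libraries, the coefficient of variation (SD over mean) was 7.40% for Rora, 6.25% for Arntl, 4.47% for Clock and 9.93% for Nr1d1, but it was 34.6% for Per1, 32.1% for Per2, 37.7% for Per3 and 40.1% for Cry1. Cry2 and Nr1d2 lay between them at 26.3% and 21.8%. The median over the 11939 genes tested was 30.0% in MA-10 cells and 6.46% in STARKO1 cells. In MA-10 cells 6 of the 10 genes (Rora, Arntl, Clock, Nr1d1, Cry2 and Nr1d2) were below that median. Within MA-10 cells, 8 of the 10 genes were lowest in replicate 2, where 36.3% of all tested genes were lowest, and 7 were highest in replicate 1, where 44.6% of all tested genes were highest. The part of library composition in these patterns was not tested.

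Levels were ranked per kb of exon. In MA-10 cells, Cry2 was at 12.1 ± 3.19 CPM per kb and Nr1d1 at 10.9 ± 1.08 CPM per kb, followed by Nr1d2 at 7.22 ± 1.57 CPM per kb. Cry1, Clock, Per1, Rora, Per2 and Arntl followed from 5.12 down to 2.79 CPM per kb, each overlapping with its neighbours in the order, with Rora at 3.17 ± 0.234 CPM per kb. Per3 was last at 0.640 CPM per kb, and only the steps from Nr1d1 to Nr1d2 and from Arntl to Per3 were free of overlap. In STARKO1 cells, Cry2 was first at 8.28 ± 0.216 CPM per kb, Nr1d1 came after Nr1d2, Clock and Per1 at 3.63 ± 0.379 CPM per kb, and Per3 (0.287 CPM per kb) and Rora (0.258 ± 0.0164 CPM per kb) were last and overlapped. Rora had rank 7 of 10 in MA-10 cells and rank 10 in STARKO1 cells.

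As a description only, since these genes were chosen on this comparison, 2 of the 10 (Rora and Nr1d1) were past an adjusted p under 0.05 in the fit of all genes, both lower in STARKO1 cells. Of all 11939 genes, 9.04% were past it, 4.74% lower and 4.30% higher, and 0 of the 10 were higher. At an unadjusted p under 0.05 there were 4 lower and 0 higher, where 37.6% of all genes were under it, and DESeq2 gave 3 lower and 0 higher, where it called 28.4% of all genes. The count followed the library left out, with 3 without MA-10 replicate 1 (65.7% of all genes), 4 without MA-10 replicate 2 (4.19%) and 1 without STARKO1 replicate 1 (0.730%) or replicate 3 (0.760%), and with library size alone it was 1 (2.76%). It was 8, all lower, with MA-10 replicate 1 alone, where 40.5% of all genes were called. In CPM, the libraries of 4 genes (Rora, Nr1d1, Per3 and Cry2) did not overlap, where 42.5% of all tested genes did not. In all 4 the STARKO1 libraries were lower, as they were in 21.0% of tested genes, and in 0 they were higher, against 21.5%. For Per3 and Cry2 this did not hold relative to library totals alone. The median log2 fold change of the 10 genes was -0.45, against -0.05 over all tested genes, and nothing is read from these counts because the genes were chosen on this comparison.

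The 5 genes whose log2 CPM over the 6 libraries, centred on its own mean, was nearest to that of Rora were Mgat4c, F2r, Birc3, Enpp2 and Nrcam. Their Euclidean distances to Rora were 0.584, 0.699, 0.857, 0.890 and 0.942, with a median distance of 4.39 over all genes. Mgat4c, a gene of the N-acetylglucosaminyltransferase family, had 51.7 ± 4.49 and 5.77 ± 0.302 CPM in the MA-10 and STARKO1 libraries (SD, n = 3 each). F2r, which encodes a thrombin receptor, had 33.4 ± 8.19 and 3.18 ± 0.573 CPM (SD, n = 3 each), while Birc3, Enpp2 and Nrcam had means of 3.73, 3.49 and 3.27 CPM in MA-10 cells. In STARKO1 cells Birc3, Enpp2 and Nrcam had means of 0.273, 0.167 and 0.322 CPM. That of Enpp2 was near the floor of 3 counts (at most 0.177 CPM in STARKO1 cells). No core clock gene was among the 5 genes.

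Genes that act around the core loop but are not among the 10 were read from a list of 31, of which 27 were tested. The list was made with earlier results of these data known, so its p-values describe these libraries and are not an independent test. By edgeR's quasi-likelihood test, 3 of these 27 fell in STARKO1 cells and 0 rose, a share of 11.1% where 9.04% of all tested genes were past the threshold. At an unadjusted p under 0.05 there were 6 lower and 2 higher, or 29.6% where 37.6% of all tested genes were under it. DESeq2 also called 6 lower and 2 higher, where it called 28.4% of all genes. The median log2 fold change of the 27 genes was -0.13, against -0.05 over all tested genes. The count of 3 was 0 without STARKO1 replicate 1 or 3, where 0.730% and 0.760% of all genes were called. It was 1 without MA-10 replicate 3 (1.49% of all genes) or STARKO1 replicate 2 (1.11%). Without MA-10 replicate 1 it was 16 (8 higher and 8 lower), where 65.7% of all genes were called. The 3 genes were Dbp, Bhlhe41 and Csnk1e, and each has a different place in the clock.

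**Figure D3:**
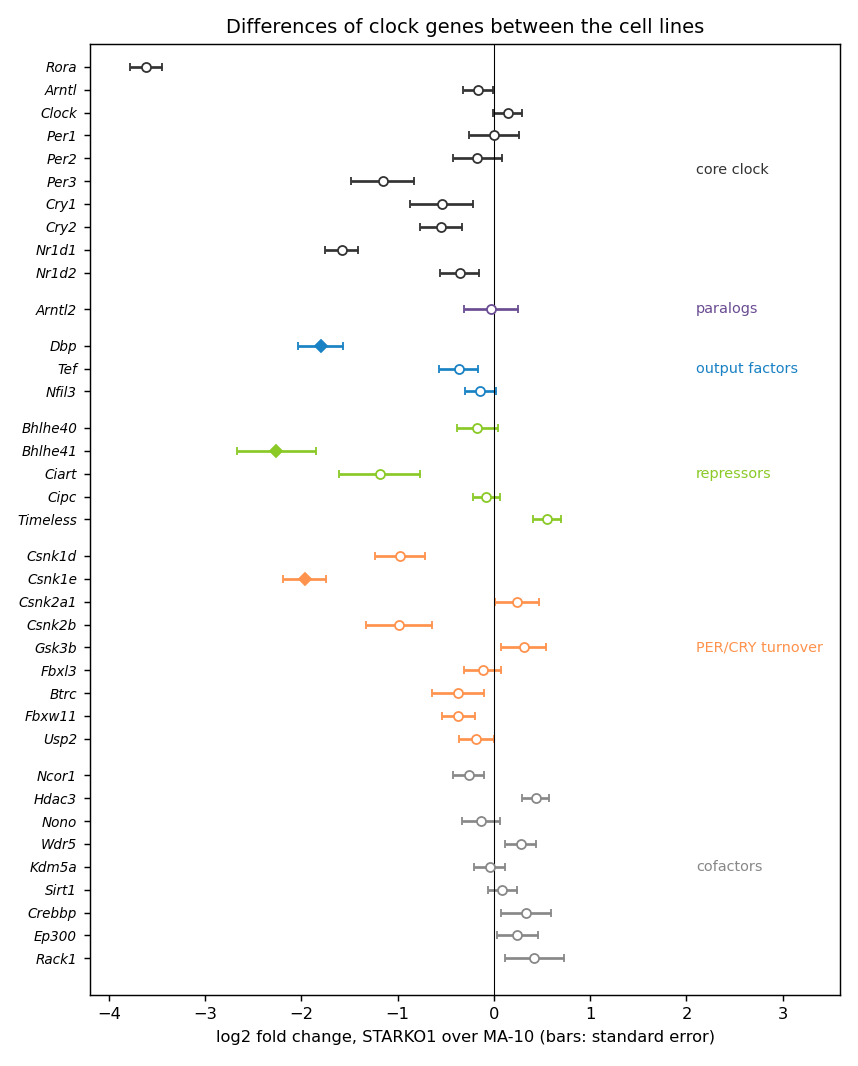
Log2 fold change of STARKO1 over MA-10 with its standard error (bars) for the 10 core genes and the 27 other clock genes, grouped by role. Filled diamonds mark genes outside the 10 with an adjusted p under 0.05, which are Dbp at -1.80, Bhlhe41 at -2.26 and Csnk1e at -1.97, and open circles mark all others, including all core genes, for which no test is shown.

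Dbp, a PAR bZIP factor that BMAL1 and CLOCK drive directly and that acts on D-boxes, fell in STARKO1 cells. It lies on chromosome 7 (45705088 to 45710203, plus strand) and was at 61.6, 43.3 and 54.8 CPM in the MA-10 libraries and at 16.1, 18.2 and 11.5 CPM in the STARKO1 libraries. The groups stood well apart, and the fall was -1.80 on the log2 scale (standard error 0.23, adjusted p = 0.00900, edgeR's quasi-likelihood test). The call was lost without MA-10 replicate 3 (adjusted p = 0.0571), STARKO1 replicate 1 (0.0812) or STARKO1 replicate 3 (0.0567), and with library size alone (0.0963). Dbp shares 539 bp of exon with Sphk2 on the other strand, whose log2 fold change of 0.55 (standard error 0.36) was not past the threshold (adjusted p = 0.284). Tef, a related factor, was at 32.9 ± 7.54 and 25.5 ± 1.00 CPM (SD, n = 3 each) and was not past the threshold (adjusted p = 0.212). The ratio of Tef to Dbp per kb was 0.253, 0.229 and 0.220 in the MA-10 libraries and 0.615, 0.546 and 0.804 in the STARKO1 libraries. Nfil3, the repressor that competes for D-boxes, had a log2 fold change of -0.14 (adjusted p = 0.529), and Hlf was not analysed here.

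Bhlhe41, also named DEC2, encodes a repressor that binds E-boxes, and it fell in STARKO1 cells. It lies on chromosome 6 (145858243 to 145865558, minus strand), with the E-box shown above, and was at 2.98, 7.72 and 4.40 CPM in the MA-10 libraries and at 1.20, 0.825 and 1.07 CPM in the STARKO1 libraries. The groups did not overlap, with MA-10 replicate 1 nearest to the STARKO1 libraries. On the log2 scale the change was -2.26 (standard error 0.41, adjusted p = 0.0260, edgeR's quasi-likelihood test). The call was lost without MA-10 replicate 3 (adjusted p = 0.0935) and without STARKO1 replicate 1, 2 or 3 (0.124, 0.137 and 0.143). With a replicate block it was 0.0740. Its paralog Bhlhe40 was far more abundant, at 30.2 ± 2.90 and 26.8 ± 6.15 CPM per kb of exon (SD, n = 3 each), and was not past the threshold (adjusted p = 0.575). Ciart, a repressor with E-boxes in its promoter, was at 4.38 ± 1.73 and 1.89 ± 0.629 CPM (SD, n = 3 each, log2 fold change -1.19, adjusted p = 0.0941), Cipc had -0.08 (adjusted p = 0.707) and Timeless had 0.55 (adjusted p = 0.0590).

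Csnk1e, which encodes casein kinase 1 epsilon, a kinase that phosphorylates PER proteins, fell in STARKO1 cells. It lies on chromosome 15 (79417856 to 79455566, minus strand) and was at 31.0, 21.9 and 35.4 CPM in the MA-10 libraries and at 8.22, 6.96 and 7.42 CPM in the STARKO1 libraries. No library of either cell line came near the other group, and the change on the log2 scale was -1.97 (standard error 0.22, adjusted p = 0.00641, edgeR's quasi-likelihood test). The call was lost without STARKO1 replicate 1, 2 or 3 (adjusted p = 0.0603, 0.0513 and 0.0564) and with library size alone (0.0738). Csnk1d, the partner kinase, had 154 ± 52.9 and 78.2 ± 2.39 CPM (SD, n = 3 each) and was not past the threshold (log2 fold change -0.98, adjusted p = 0.0595). Of the 9 tested genes for the phosphorylation and turnover of PER and CRY, only Csnk1e passed the test, where 9.04% of all tested genes passed. The median log2 fold change of the 9 was -0.37, against -0.05 over all tested genes. Of 9 tested cofactors of the clock, 0 passed the edgeR quasi-likelihood test. For 1, Hdac3, the unadjusted p was under 0.05 (log2 fold change 0.43), as it was for 37.6% of all tested genes. Hdac3 passed with DESeq2, which called 28.4% of all genes.

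Genes reported elsewhere as targets of RORA or of ROR elements were listed next, also with earlier results of these data known. Of 16 such genes, 7 were tested and 2 passed the test in opposite directions, a share of 28.6% where 9.04% of all tested genes passed. Cpt1a, which carries fatty acids into mitochondria, rose from 72.5, 34.2 and 40.0 CPM in the MA-10 libraries to 109, 119 and 117 CPM in the STARKO1 libraries (log2 fold change 1.23, standard error 0.30, adjusted p = 0.0494, edgeR's quasi-likelihood test). Hif1a, the oxygen-regulated transcription factor, fell from 578, 576 and 910 CPM in the MA-10 libraries to 331, 303 and 327 CPM in the STARKO1 libraries (log2 fold change -1.10, standard error 0.25, adjusted p = 0.0430). Neither group pair overlapped. Both calls were lost when any library but MA-10 replicate 1 was left out. For Cpt1a the adjusted p was then 0.0931 and 0.173 without MA-10 replicates 2 and 3 and 0.168, 0.181 and 0.191 without STARKO1 replicates 1, 2 and 3. For Hif1a it was 0.0535 and 0.0990 without MA-10 replicates 2 and 3 and 0.205, 0.196 and 0.204 without STARKO1 replicates 1, 2 and 3. In the fit with a replicate block it was 0.0845 for Cpt1a and 0.106 for Hif1a. The median log2 fold change of the 7 genes was -0.14, against -0.05 over all tested genes.

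Since cAMP and serum act on Per1, 10 genes of that early response, listed with earlier results of these data known, were also read. Of these, 2 fell and 0 rose by edgeR's quasi-likelihood test, where 9.04% of all tested genes passed, while Per1 itself had a log2 fold change of 0.00. At an unadjusted p under 0.05 there were 3 lower and 1 higher, where 37.6% of all genes were under it, and DESeq2 called 2 lower and 1 higher, where it called 28.4% of all genes. Egr1 was at 6.53, 17.3 and 9.25 CPM in the MA-10 libraries and at 2.80, 3.30 and 1.97 CPM in the STARKO1 libraries (log2 fold change -2.03, standard error 0.41, adjusted p = 0.0335). Crem, a cAMP-responsive modulator, was at 3.55, 5.64 and 7.31 CPM in the MA-10 libraries and at 2.28, 1.59 and 1.35 CPM in the STARKO1 libraries (log2 fold change -1.64, standard error 0.36, adjusted p = 0.0399). Both calls were lost when any library but MA-10 replicate 1 was left out. The adjusted p of Egr1 was then 0.0528, 0.108, 0.153, 0.127 and 0.164 without MA-10 replicates 2 and 3 and STARKO1 replicates 1, 2 and 3, and that of Crem was 0.0870, 0.136, 0.133, 0.170 and 0.185. In the fit with a replicate block it was 0.0503 for Egr1 and 0.101 for Crem.

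**Figure D4:**
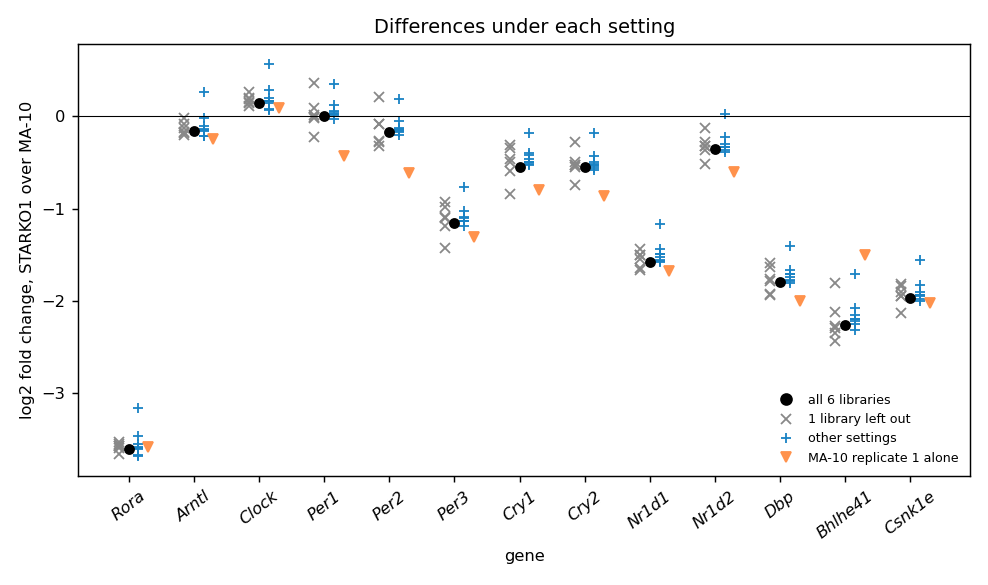
Log2 fold change of STARKO1 over MA-10 for the 10 core genes, Dbp, Bhlhe41 and Csnk1e with all 6 libraries (black), with 1 library left out (grey crosses), under the other settings (blue plus signs) and with MA-10 replicate 1 alone (orange triangles). Rora stays between -3.69 and -3.17 under the planned settings. The signs of Arntl and Nr1d2 turn with library size alone, and that of Per2 there and without MA-10 replicate 1. That of Per1 turns with gene length offsets and without MA-10 replicate 2, MA-10 replicate 3 or STARKO1 replicate 2.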

How the data were processed

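RNA sequencing libraries of total RNA, made with a stranded low-input kit, were compared between MA-10 and STARKO1 cells (3 libraries each, grouped by their labels). The authors deposited estimated counts per gene, not scaled, for 14774 genes, of which 54.2% held a fractional value in some library. The submitters' processing notes name STAR 2.6.1d, which shares its name with the gene, Partek and mm10, but the role of each, the strand setting and the counting program are not given in the sources used here. Gene coordinates match GRCm38.

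After rounding, edgeR 4.0.16 was run in R 4.3.3 (filterByExpr, TMM, quasi-likelihood test, Benjamini-Hochberg adjustment over 11939 genes, adjusted p under 0.05). Standard errors are the log2 fold change divided by the square root of F. Levels per kb use the summed exons of GENCODE. Totals were 14114351 to 19530062 counts, and 3 counts were taken as the floor. Counting error is larger for genes with few counts, such as Bhlhe41 with 28, 14 and 19 counts in the STARKO1 libraries. The 10 core genes and all gene lists were chosen with earlier results of these data known, and 1 gene of the planned clock list is not reported here. The text names the 10 genes, every gene past the threshold in the clock and RORA target lists with others of those lists as values, the 5 genes of at least 1 CPM nearest to Rora, and Star, while Thra, Sphk2, Egr1, Crem, Ier2 and the marker genes were named after their values were seen. Promoters came from RefSeq (GRCm38.p6), and the ROR core was narrowed from TNGGTCA after a first search that also found CCAAT boxes read backwards. The alternatives were DESeq2 1.42.0, upper quartile scaling, library size alone, no filter, a replicate block, at least 10 counts in every library, gene length offsets with and without the block, and leaving out each library. MA-10 replicate 1 alone was added after the data were seen. Scripts were tested on simulated counts. Python 3.11.15, pandas 2.3.3 and matplotlib 3.10.9 made tables and figures.

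Libraries with the same number did not vary together around their group means (correlations of -0.0346, 0.0907 and -0.0162 across genes), and no label ties them, so the fit has no replicate block.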

Additional observations from a re-analysis of the deposited data

How the results depend on the processing

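The number of genes past the threshold depended strongly on the fit, and the cause was not tested. Of all genes, 1079 passed with all libraries, against 3395 by DESeq2, 330 with library size alone (210 higher and 120 lower, or 63.6% higher against 47.5%), 695 with at least 10 counts in every library, 234 with a replicate block, 270 with the block and gene length offsets, 5086 with MA-10 replicate 1 alone, and 89 to 7990 when 1 library was left out (89 without STARKO1 replicate 1, 7990 without MA-10 replicate 1). Of the 27 clock genes outside the core, 3 passed, against 8 by DESeq2, 1 with library size alone, 2 with the replicate block, 8 with MA-10 replicate 1 alone and 0 to 16 when 1 library was left out, where 7 and 5 had an unadjusted p under 0.05 in the fits with 0. Of the RORA targets, 2 passed, against 0 with upper quartile scaling, library size alone, at least 10 counts, the replicate block or the block with gene length offsets (2 or 3 genes with an unadjusted p under 0.05 in each), 1 with no filter, 3 by DESeq2, 5 with MA-10 replicate 1 alone and 0 to 3 when 1 library was left out. Of the early response genes, 2 passed, against 0 with library size alone (3 with an unadjusted p under 0.05) or the replicate block (5), 1 with the block and gene length offsets, 3 by DESeq2, 5 with MA-10 replicate 1 alone and 0 to 7 when 1 library was left out. Ier2 had a log2 fold change of 0.36 with MA-10 replicate 1 alone, against -0.86 with all libraries. Of the core genes, Rora, Clock, Per3, Cry1, Cry2 and Nr1d1 kept their direction under all 14 planned settings. The replicate numbers did not pair the libraries. The lowest count of a core gene was 41, for Per3 in MA-10 replicate 2. Among the core genes, counting error weighs most on Per3 (65, 49 and 46 counts in STARKO1 libraries) and on Rora in STARKO1 cells (84, 56 and 57 counts).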
